A study of Rattus norvegicus with 6 samples.

Results

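Proteoglycans are proteins that carry glycosaminoglycan chains. Here 6 genes for their core proteins (Dcn, Bgn, Fmod, Sdc4, Cspg4 and Bcan) were examined together with Ugdh. Ugdh is the enzyme that makes the glucuronic acid donor for many of these chains. The 7 genes were picked by their symbol in the annotation of the array, each has 1 probe, and they make up 7 of 1185 probes. They were chosen with their differences between the groups already known, so these differences are described here without a test. RNA was taken from whole rat hearts, 1 array per heart. In 3 rats the heart had gone through cardiopulmonary bypass (CPB), a procedure that hands the work of heart and lungs to a machine. The other 3 rats had a sham operation. The labels do not state strain, sex, age, time of sampling or length of bypass. They also do not say whether samples were handled together, so the errors below come only from the spread between these samples. Each SE draws on the spread of all probes as well as of its own gene. It can therefore differ from what that gene's SDs would give.

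A proteoglycan is assembled in the secretory pathway, where many of the sugar chains are built on serines of the core protein from nucleotide sugars. Ugdh oxidises UDP-glucose to UDP-glucuronic acid, which supplies the glucuronic acid of hyaluronan, chondroitin sulfate and heparan sulfate, and after epimerisation the iduronic acid of dermatan sulfate. In the heart, small leucine-rich proteoglycans such as decorin bind collagen fibrils in the interstitium, and syndecans sit in cell membranes as co-receptors for growth factors and matrix.

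In CPB hearts Ugdh was 1.99-fold above sham, a normalized log2 difference of 1.00 (SE 0.33, n = 3 in each group), and its groups did not overlap. The core proteins went both ways. The small matrix proteoglycans Dcn and Bgn were 1.42-fold and 1.40-fold lower in CPB. Bcan was 1.68-fold lower (log2 difference -0.75, SE 0.38), with its value in CPB replicate 3 at the array's lowest level. Its difference came to -0.47 with the arrays at a common median. The log2 differences of Dcn and Bgn came to -0.12 and -0.099 with the arrays at a common median, and that of Dcn turned to 0.065 without CPB replicate 3. Fmod, Sdc4 and Cspg4 had differences of 0.33 (SE 0.31), 0.40 (SE 0.38) and 0.25 (SE 0.40), and those of Fmod and Cspg4 changed sign in the values as deposited, to -0.029 and -0.079. Set against the mean of the 6 core proteins in the same heart, Ugdh was 1.12 higher on the log2 scale in CPB than in sham hearts. A limma fit across all probes called 0 of 1185 (0%) at an adjusted p under 0.05, and 35 (2.95%) had an unadjusted p under 0.05.

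The arrays differ in how finely they resolve dim genes. Each array has a lowest level and rises from it in equal steps, with a step of 80.1 to 359.6 linear units. Between 10.7% (CPB replicate 2) and 47.3% (CPB replicate 3) of probes lay at the lowest level. Normalization here was by quantiles. In the values as deposited the median difference over all probes was -0.29, against -0.029 after quantile normalization and 0.11 when the arrays were brought to a common median, and single differences move with it. The tissue label was checked with cardiomyocyte markers. Of 12 listed, 6 were measured, and all 6 lay above the lowest level on every array. As 498 of all 1185 probes did so too, this alone does not tell heart from other tissue. The brightest of the 6, Tnnt2 and Myh6, had normalized log2 group means of 17.80 to 17.91.

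The bases upstream of the transcription start are shown for Ugdh and for the core proteins with the lowest (Bcan) and highest (Sdc4) difference. They come from RefSeq on GRCr8, which held the upstream sequence of 5 of the 7 genes. Each run is the 250 bases before the annotated start, 5′ to 3′ on the gene's strand, at chr14:43202268-43202517 (plus strand) for Ugdh, chr2:175765315-175765564 (minus strand) for Bcan and chr3:173592924-173593173 (minus strand) for Sdc4. Capitals mark the GC box GGGCGG on either strand.
Ugdh: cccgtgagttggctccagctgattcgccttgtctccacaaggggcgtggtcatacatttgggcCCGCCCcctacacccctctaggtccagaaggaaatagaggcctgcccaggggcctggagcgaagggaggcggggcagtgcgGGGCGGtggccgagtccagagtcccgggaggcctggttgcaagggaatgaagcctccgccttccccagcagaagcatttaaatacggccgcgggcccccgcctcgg
Bcan: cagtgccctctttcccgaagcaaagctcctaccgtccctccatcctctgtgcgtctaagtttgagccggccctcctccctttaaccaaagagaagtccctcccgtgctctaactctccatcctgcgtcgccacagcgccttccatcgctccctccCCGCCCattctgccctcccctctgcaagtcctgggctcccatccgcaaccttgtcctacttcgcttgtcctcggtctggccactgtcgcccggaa
Sdc4: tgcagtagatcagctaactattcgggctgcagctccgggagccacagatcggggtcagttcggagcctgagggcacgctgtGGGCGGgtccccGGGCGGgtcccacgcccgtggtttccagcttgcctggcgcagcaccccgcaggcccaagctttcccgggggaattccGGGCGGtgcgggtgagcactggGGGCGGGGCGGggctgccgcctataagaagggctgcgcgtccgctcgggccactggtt
The GC box occurred 2 times upstream of Ugdh, 1 time upstream of Bcan and 5 times upstream of Sdc4, where 2 of the matches overlap. Cspg4 held 2 and Fmod 1, so all 5 of these genes had a match, against 30.5% of 33465 rat promoters of the same length. Their GC content was 52.8% (Fmod) to 70% (Sdc4), with a median of 51.2% over all promoters. On either strand, the TATA box TATAAA, the AP-1 site TGANTCA and the E-box CACGTG had no match upstream of the 5 genes, and occurred in 12.9%, 6.34% and 5.59% of promoters. The CCAAT box CCAAT had 1 match each upstream of Cspg4 and Fmod (34.0% of promoters). These matches describe letters in the sequence and do not show binding.

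Decorin, encoded by Dcn (probe RA0221), is a small leucine-rich proteoglycan with a single chondroitin or dermatan sulfate chain that binds collagen and transforming growth factor beta. Its normalized log2 intensity was 12.86, 13.21 and 11.32 in CPB replicates 1, 2 and 3, and 13.70, 12.68 and 12.54 in the sham replicates. CPB replicate 3 was the lowest of all 6 hearts and the other CPB hearts lay within the sham range, so the groups overlapped. The means were 12.46 ± 1.01 (SD, n = 3) and 12.97 ± 0.64 (SD, n = 3), a difference of -0.51 (SE 0.44). Without CPB replicate 3 the difference was 0.065, so that heart alone set the sign. With the arrays at a common median it was -0.12. On its array Dcn lay 6 steps above the lowest level, against 14 to 111 steps on the others.

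Biglycan, encoded by Bgn (probe RA0156), is the closest relative of decorin among these genes and carries chondroitin or dermatan sulfate chains. Bgn stood at 10.99, 10.69 and 11.77 in CPB replicates 1, 2 and 3, and at 12.05, 11.31 and 11.55 in the sham hearts. CPB replicates 1 and 2 lay under every sham heart, while CPB replicate 3 lay above sham replicates 2 and 3. The group means were 11.15 ± 0.56 (SD, n = 3) and 11.64 ± 0.38 (SD, n = 3), with a difference of -0.49 (SE 0.34). It ranged from -0.84 without CPB replicate 3 to -0.25 without CPB replicate 2, and came to -0.099 with the arrays at a common median.

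Among the CPB hearts, Dcn and Bgn had opposite orders. Dcn was highest in replicate 2 and lowest in replicate 3, while Bgn was highest in replicate 3 and lowest in replicate 2. In sham hearts replicate 1 held the highest value of both. The profiles of Dcn and Bgn over the 6 hearts, each centred on its own mean, were 0.93 log2 units apart (root mean square difference). Those of Dcn and Sdc4 were 0.66 apart, and those of Bgn and Fmod 0.52.

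Fibromodulin, encoded by Fmod (probe RA1025), is a collagen-binding member of the same leucine-rich family that carries keratan sulfate. Keratan sulfate is not among the chains named above that hold glucuronic acid. Fmod was close to the limit of these arrays, at 1, 3 and 1 steps above the lowest level in CPB replicates 1, 2 and 3 and at 1, 1 and 0 in the sham replicates. At such levels 1 step was worth 0.23 to 0.97 log2 units. The normalized values were 8.99, 9.35 and 9.52 in CPB and 9.20, 8.99 and 8.68 in sham hearts, and the groups overlapped. The difference of 0.33 (SE 0.31) is under the widest step.

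Markers of fibroblasts, which make Dcn in connective tissue, were set beside these values. Of 11 listed, Sparc and Thy1 were the only ones measured besides Dcn. The difference of Thy1 was -0.10, and 0.016 with the arrays at a common median. The summed linear level of Sparc and Thy1 was 6199 to 14977 in CPB and 23929 to 29478 in sham hearts. Sparc, which encodes the matricellular protein osteonectin, makes up most of that sum, with a difference of -1.50 (SE 0.33, limma adjusted p = 0.371). Thy1 was within 2 steps of the lowest level on every array. The part of these markers in the Dcn and Bgn values was not tested. In whole hearts, fewer cells of a type and less RNA per cell cannot be told apart.

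**Figure D1:**
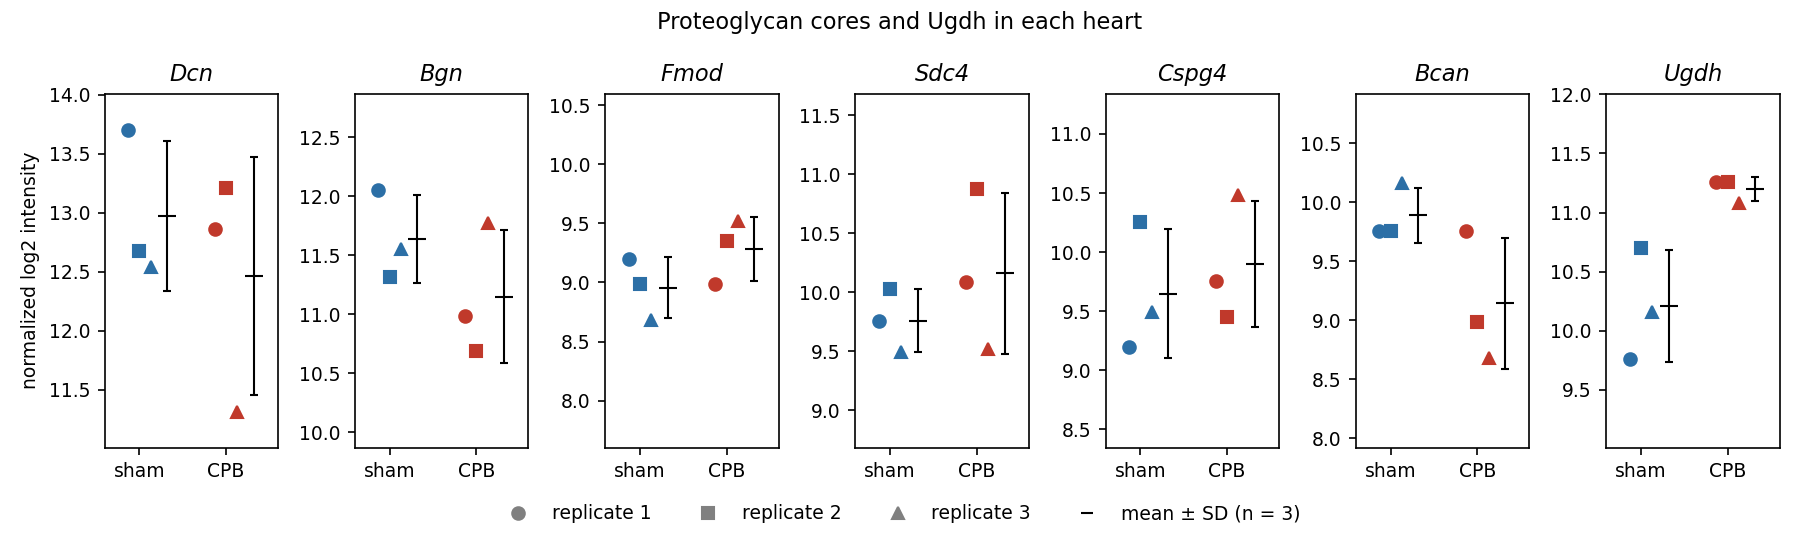
Normalized log2 intensity of the 7 genes in sham (blue) and CPB (red) hearts. Each panel spans 3 log2 units, point shapes give the replicate number, and black bars are mean ± SD (n = 3). Ugdh in the 3 CPB hearts (11.08 to 11.26) lies above the 3 sham hearts (9.76 to 10.70), Bcan is tied between groups at 9.76, and the other genes overlap.

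Syndecan 4, encoded by Sdc4 (probe RA0140), is a membrane heparan sulfate proteoglycan of focal adhesions. Sdc4 stood at 10.09, 10.87 and 9.52 in CPB replicates 1, 2 and 3, and at 9.76, 10.03 and 9.49 in the sham replicates. CPB replicate 2 lay above all other hearts, while CPB replicate 3 was under sham replicates 1 and 2. The means were 10.16 ± 0.68 (SD, n = 3) and 9.76 ± 0.27 (SD, n = 3), with a difference of 0.40 (SE 0.38). Without CPB replicate 2 it was 0.028. That array has the finest step, and Sdc4 lay 20 steps above its lowest level there, against 1 to 5 steps on the others.

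Cspg4 (probe RA0970) encodes NG2, a transmembrane chondroitin sulfate proteoglycan known as a pericyte marker. Cspg4 stood at 9.76, 9.45 and 10.49 in CPB replicates 1, 2 and 3, and at 9.20, 10.25 and 9.49 in the sham replicates. The spread within each group was as wide as 1.03 in CPB and 1.05 in sham hearts, so the groups overlapped over most of their range. The difference was 0.25 (SE 0.40), with -0.070 without CPB replicate 3 and -0.079 in the values as deposited, so no direction can be given. It lay 1 to 7 steps above the lowest level. Of 12 markers of smooth muscle and pericytes 3 were measured (Tagln, Myh11 and Cspg4). The summed linear level of Tagln and Myh11 was 7773 to 14568 in CPB and 8343 to 10910 in sham hearts, so these ranges overlapped too.

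Brevican, encoded by Bcan (probe RA1023), is a chondroitin sulfate proteoglycan known from brain matrix, where it binds hyaluronan. Bcan stood at 9.76, 8.99 and 8.68 in CPB replicates 1, 2 and 3, and at 9.76, 9.76 and 10.16 in the sham replicates. No CPB heart was above a sham heart, and CPB replicate 1 was tied with sham replicates 1 and 2. The difference was -0.75 (SE 0.38), with 9.14 ± 0.55 (SD, n = 3) for the CPB hearts and 9.89 ± 0.23 (SD, n = 3) for the sham hearts. In the values as deposited the tie was broken and all 3 CPB hearts lay under all sham hearts, as they did for 37 of 1185 probes (3.12%). The difference was -0.86 as deposited, -0.47 with the arrays at a common median and -0.46 with a pseudocount at the 25th percentile. In steps over the lowest level, Bcan was at 3, 2 and 0 in the CPB hearts and 2, 4 and 2 in the sham hearts, so CPB replicate 3 gives no measured level.

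Other nerve and glia markers were set beside Bcan. Of 15 listed, 8 were measured besides Bcan. Of these 8, 7 had a difference below 0 (median -0.21), against 8 as deposited (median -0.48) and 4 with the arrays at a common median (median -0.083). Over all 1185 probes 622 (52.5%) were below 0 after quantile normalization. The medians over all probes were -0.029, -0.29 and 0.11 in the same order of scalings. The summed linear level of the 8 was 5990 to 6710 in CPB and 7414 to 7851 in sham hearts, with no overlap. The deposited ranges of 5405 to 6887 and 6675 to 9128 overlapped. Among single probes, 50 of 1185 (4.22%) had groups that did not overlap after quantile normalization. None of the 8 passed the adjusted threshold in the limma fit or had an unadjusted p under 0.05. Most were dim, and only 3 of the 8 exceeded the lowest level everywhere (Prph, Gfap and S100b). The glial genes Cnp and Sox10 were at the lowest level on 2 arrays of each group, and the myelin gene Mog on 2 CPB arrays. Their part in the Bcan values was not tested.

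Ugdh (probe RA0009) stood at 11.26, 11.26 and 11.08 in CPB replicates 1, 2 and 3, and at 9.76, 10.70 and 10.16 in the sham replicates. All 3 CPB hearts lay above all 3 sham hearts, as they did for 19 of 1185 probes (1.6%). The CPB hearts lay close together and the sham hearts were spread over 0.95, with means of 11.20 ± 0.10 (SD, n = 3) and 10.20 ± 0.47 (SD, n = 3). Sham replicate 1 was the lowest and sham replicate 2 the nearest to the CPB hearts. Without those arrays in turn the difference of 1.00 became 0.81 and 1.22. In steps over the lowest level, Ugdh was at 11, 29 and 5 in the CPB hearts and at 2, 11 and 2 in the sham hearts. At 2 steps, in sham replicates 1 and 3, 1 step was worth 0.43 and 0.41 log2 units, so a change of 1 step there is smaller than the gap between the groups' means. Sham replicate 2, the sham heart with the best resolved Ugdh level, was 0.38 below the lowest CPB heart.

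**Figure D2:**
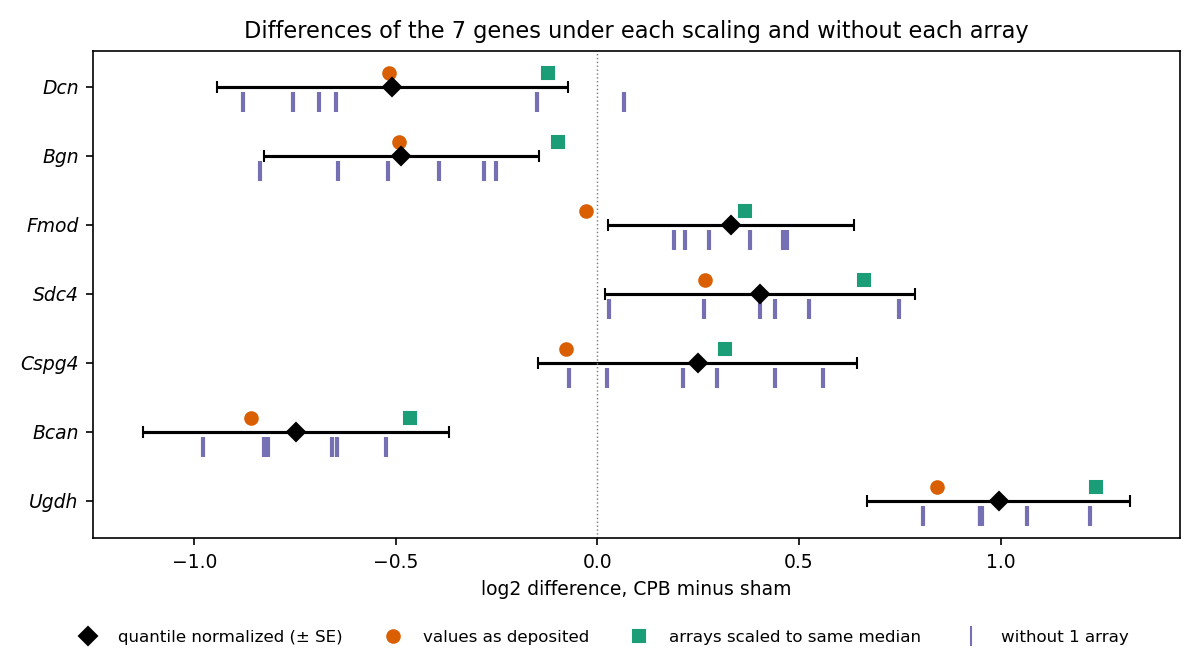
Log2 difference between CPB and sham hearts for each gene. Black diamonds are the quantile-normalized values with SE, orange points the values as deposited, green squares the arrays at a common median, and purple ticks the values with 1 array left out. Ugdh stays above 0 and Bgn and Bcan below 0 in all of these, Sdc4 is above 0 in all but comes to 0.028 without CPB replicate 2, and Dcn, Fmod and Cspg4 cross 0.

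Ugdh was next set against the core proteins within each heart, to see whether enzyme and cores differed alike between the groups. Each gene was expressed as its difference from its own sham mean, since levels of different probes are not comparable, and the mean over the 6 cores was subtracted from Ugdh. A scaling factor common to an array cancels in this quantity. It was 1.13, 1.10 and 1.14 in CPB replicates 1, 2 and 3, and -0.58, 0.47 and 0.11 in the sham replicates. All 3 CPB hearts lay above all sham hearts. The CPB mean was 1.12 ± 0.017 (SD, n = 3) and the sham mean, 0 by construction, had an SD of 0.54 (n = 3), which makes a ratio of 2.18. In the values as deposited the CPB hearts stood at 1.17, 1.29 and 0.93 and the sham hearts at -0.52, 0.51 and 0.014, so the close spacing of the CPB hearts came with the quantile normalization.

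The core mean itself stood at -0.071, -0.049 and -0.26 in CPB replicates 1, 2 and 3, relative to sham, while single cores in those hearts ranged from -1.65 (Dcn in replicate 3) to 1.12 (Sdc4 in replicate 2). Each of the 3 CPB hearts had 3 of the 6 cores under their sham mean. Ugdh exceeded the core in 17 of 18 comparisons within CPB hearts, with Sdc4 in CPB replicate 2 as the exception (1.12 against 1.05 for Ugdh). In sham hearts it exceeded the core in 10 of 18, and in sham replicate 1 in 0 of 6. These comparisons share a single Ugdh value per heart, so they are not independent. Ugdh was also chosen with its difference known, so the counts are a description only. Against single cores the Ugdh difference was larger by 1.74 for Bcan, 1.50 for Dcn, 1.48 for Bgn, 0.75 for Cspg4, 0.66 for Fmod and 0.59 for Sdc4. With the membrane proteoglycans Sdc4 and Cspg4 alone as the comparison, the value was 0.67. With the small leucine-rich Dcn, Bgn and Fmod it was 1.22. Without Fmod, which carries keratan sulfate, the value against the mean of the remaining cores was 1.21.

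**Figure D3:**
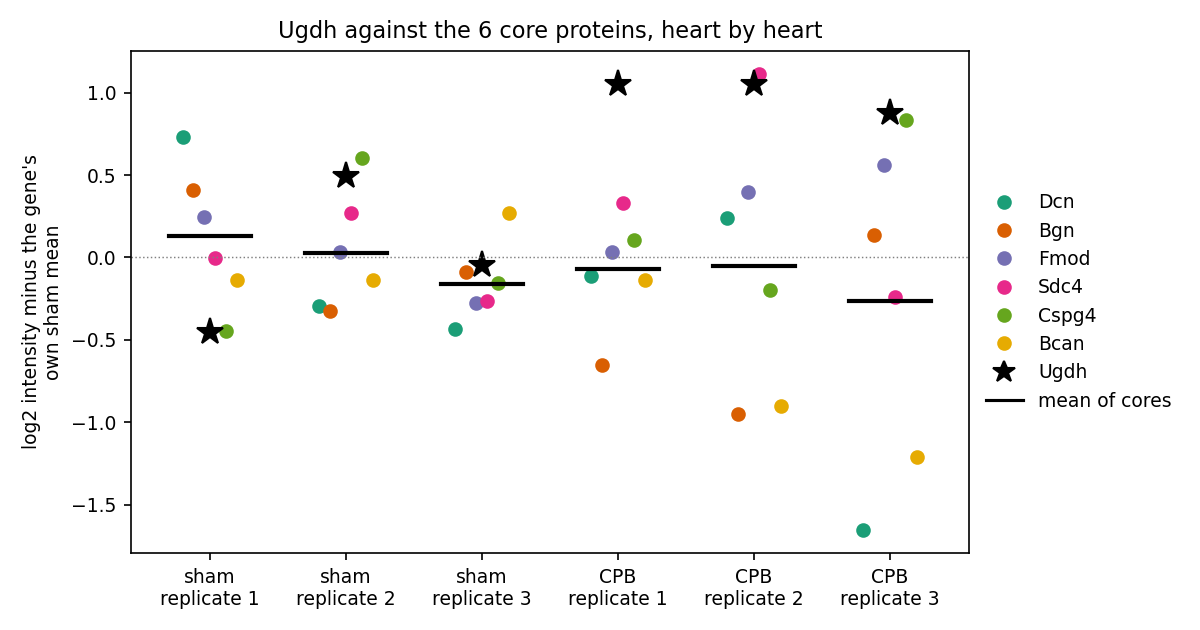
Log2 intensity of Ugdh (star) and of the 6 core proteins (coloured points) in each heart, each gene relative to its own sham mean (dotted line at 0), with the core mean as a black bar. In the 3 CPB hearts Ugdh stands 1.10 to 1.14 above the core mean, and in the sham hearts between -0.58 and 0.47.

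Replicate numbers are shared between groups, and the differences within a number were as follows. Ugdh differed by 1.50, 0.56 and 0.92 for numbers 1, 2 and 3, and relative to the core mean by 1.71, 0.63 and 1.03. Sdc4 was also above 0 for each number, at 0.33, 0.85 and 0.027. Bcan differed by 0, -0.77 and -1.48. Dcn, at -0.84, 0.53 and -1.22, and Bgn, at -1.06, -0.62 and 0.22, each had 1 number of opposite sign. Ugdh was thus higher in the CPB heart of each number, by 0.56 to 1.50. That sign follows from groups that do not overlap, for Ugdh and for Ugdh relative to the core mean, and is no further result.

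Other genes of the pathway came from 6 lists with 313 genes besides the 7, of which 27 were measured. None of the 27 passed the adjusted threshold of 0.05 in the limma fit, in either direction, and none had an unadjusted p under 0.05. Their differences were above 0 for 7, below 0 for 17 (against 52.5% of all probes) and 0 for the rest. Their median was -0.12, against -0.029 over all probes. As deposited, 22 were below 0 (median -0.42, against -0.29 over all probes), and with the arrays at a common median 14 were (median -0.029, against 0.11). Only 17 of the 27 kept their sign in all 3 scalings, so the sign of a small difference below can depend on the scaling.

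Genes for supply and assembly of chains were few and dim. Pgm1, a phosphoglucomutase that interconverts glucose phosphates upstream of UDP-glucose, was the only measured gene of 34 in sugar nucleotide supply, at 0.36 (SE 0.45, limma adjusted p = 0.974). B3gat1, a glucuronosyltransferase that uses the product of Ugdh for the HNK-1 carbohydrate, differed by 0.52 (SE 0.30, limma adjusted p = 0.909). Chst10, which adds the sulfate of HNK-1, differed by 0.41 (SE 0.25, limma adjusted p = 0.909). Both were at the lowest level on 2 sham arrays and 1 or 2 steps above it on all CPB arrays. Has2, a hyaluronan synthase, differed by -0.18 (SE 0.33), at 1 or 2 steps on every array. Gusb, the lysosomal enzyme that removes glucuronic acid, was the only measured gene of 23 in the list on glucuronosyltransferases. It had equal means in both groups after quantile normalization, -0.17 as deposited and 0.22 at a common median. Gusb was at the lowest level on 1 CPB array and 2 sham arrays and 1 step above it on the others, so equal means do not show an unchanged level.

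Of 59 other core proteins and their link proteins 9 were measured, and 4 of the 9 exceeded the lowest level on all arrays. The difference was above 0 for 1 and below 0 for 8 (median -0.17). Over all probes 52.5% were below 0 (median -0.029). With the arrays at a common median 5 of the 9 were below 0 (median -0.029, against 0.11 over all probes). Srgn, which encodes serglycin, the proteoglycan of secretory granules in blood cells, differed by -0.24 (SE 0.35, limma adjusted p = 0.974) and by 0.098 with the arrays at a common median. Aplp2, a membrane protein that can carry chondroitin sulfate, differed by -0.14 (SE 0.28), and by 0.20 at a common median. It was well resolved, at 21 to 79 steps. Acan, the cartilage proteoglycan aggrecan, differed by -0.27 (SE 0.18) and the glypican Gpc3 by -0.18 (SE 0.16). Acan lay at the floor of all CPB arrays and of 2 from sham hearts, and Gpc3 at that of 2 arrays in each group, so neither gives a level to compare. Smc3 was the gene above 0, at 0.18 (SE 0.35), and is listed because a secreted proteoglycan form has been described.

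Among genes of breakdown, 4 of 63 were measured and all lay at the lowest level on most arrays. Arsb, which removes sulfate from dermatan sulfate, and the metalloproteinase Mmp13 had equal group means after quantile normalization. Mmp12 and Mmp23 each differed by -0.13 (SE 0.13). Mmp13 was at the lowest level on all 6 arrays and has no measured level.

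Of 79 binding partners 9 were measured, 3 with a difference above 0 and 6 below it, where 52.5% of all probes were below 0. With the arrays at a common median 4 of the 9 were below 0. Lamb2, a laminin chain of basement membranes, had a difference of -0.64 (SE 0.31, limma adjusted p = 0.909) and was the only one of the 27 genes whose groups did not overlap, as for 50 of all 1185 probes (4.22%). Its mean over the CPB hearts was 10.62 ± 0.24 (SD, n = 3), and over the sham hearts 11.26 ± 0.26 (SD, n = 3). Elastin (Eln), to which biglycan binds, differed by -0.62 (SE 0.48, limma adjusted p = 0.909) with overlapping groups. C1qb, a chain of the complement component C1q to which decorin and biglycan bind, differed by -0.38 (SE 0.28, limma adjusted p = 0.909), and by 0.067 at a common median. It is also a macrophage marker. Of 13 markers of neutrophils, monocytes and macrophages 4 were measured (Lyc2, S100a9, C1qb and Aif1). All 4 differences were below 0 (median -0.61), where 52.5% of all probes were. With the arrays at a common median 2 of the 4 were (median -0.21). Their summed linear level, C1qb included, was 7037 to 8543 in CPB and 10029 to 13796 in sham hearts, without overlap. Among single probes 4.22% had groups without overlap, as given above. None passed the adjusted threshold in the limma fit, and 2 (Lyc2 and S100a9) had an unadjusted p under 0.05. The part of these markers in the C1qb values was not tested, and the sum cannot show it because it holds C1qb. Cxcl1, a chemokine held by heparan sulfate, was above the lowest level in CPB replicate 2 only. Tlr4, a receptor for soluble biglycan, was above the lowest level on 1 CPB array and on 0 sham arrays.

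**Figure D4:**
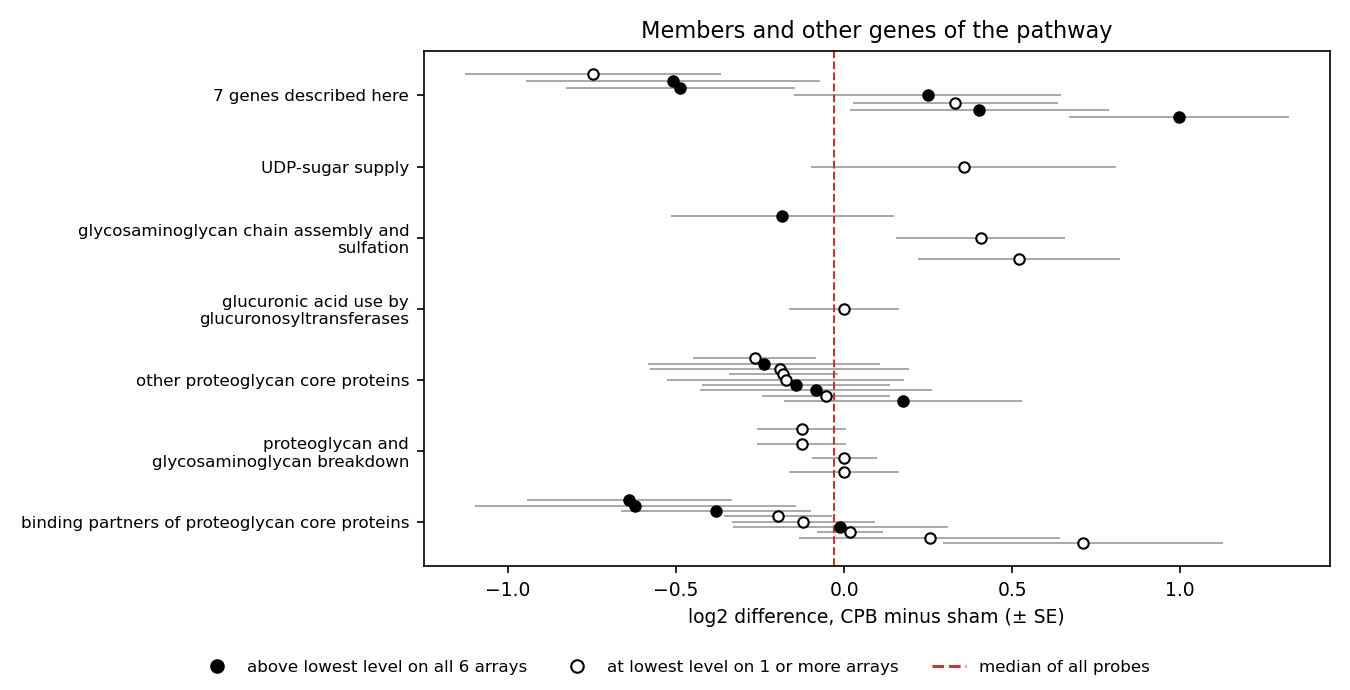
Log2 difference between CPB and sham hearts (± SE) for the 7 genes and for the 27 measured genes of 6 pathway lists. Filled points exceeded the lowest level on each of the 6 arrays, open points did not, and the red dashed line is the median of all probes at -0.029. The differences of Ugdh (1.00) and Bcan (-0.75) lie outside those of the 27 genes, which run from -0.64 (Lamb2) to 0.71 (Cxcl1, from 1 heart). The 7 genes were chosen with their differences known, so an outlying position is not a result.

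Profiles over the 6 hearts were also compared with those of 468 other named probes that exceeded the lowest level on each array. The measure was the root mean square difference of the log2 profiles, each centred on its own mean. Nearest to Ugdh were Srsf5, a splicing factor, at 0.16, Pfkfb3, which raises glycolytic flux, at 0.25, and Aanat, known for melatonin synthesis, at 0.27, where the median over the probes was 0.63. Their own differences were 0.75 (SE 0.35), 0.72 (SE 0.34) and 0.51 (SE 0.36). These genes were picked for a profile like that of Ugdh in the same hearts, so the shared sign is no further result. Srsf5 and Aanat had identical values in CPB replicates 1 and 3 and in sham replicates 1 and 3. Nearest to Dcn was Selenow, a selenoprotein, at 0.073, followed by Nab1 at 0.40 and Myo1d at 0.41, with a median of 0.83. Selenow stood at 11.13, 11.60 and 9.52 in CPB replicates 1, 2 and 3 and at 12.05, 10.88 and 10.87 in the sham replicates. It shared the low value in CPB replicate 3 and the high value in sham replicate 1, which follows from its choice by profile. Nearest to Bgn were Rpsa, a ribosomal protein, at 0.20, and Eloa and Slc16a3 at 0.22 each, with a median of 0.56. Eloa and Slc16a3 had identical values on all 6 arrays, and Rpsa differed from them in sham replicate 2 only. Identical values occur for dim probes on the same step. The part of such shared steps in these distances was not tested.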

How the data were processed

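In the authors' deposited table the values are natural logs (inverse hyperbolic sine of a spot level), as read from the values, since the labels give no unit. No label or header describes the array's chemistry, scanner or normalization. Values were taken to the linear scale, quantile normalized because array medians differed up to 2.52-fold, and converted to log2 with no pseudocount. The limma 3.58.1 fit in R 4.3.3 (eBayes with a variance trend, two-sided, Benjamini-Hochberg over 1185 probes, threshold 0.05) used 3 CPB and 3 sham arrays without a block. SEs come from it, with each probe's variance moderated toward a trend over all probes. Fits were tested on simulated data.

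Symbols came from the platform annotation, of which 1106 of 1113 were found in RefSeq (GRCr8) and updated through it. Members, lists and rules were chosen with earlier results of these data known. Named genes were the 7 members, up to 4 genes with the smallest p in each list, and the 3 nearest profiles to Ugdh, Dcn and Bgn. Sparc, Thy1, Smc3, Tlr4 and the other marker genes were named after their values were seen. The arrays' deviations from their group means had correlations of 0.240, 0.277 and 0.296 for arrays sharing number 1, 2 and 3, each above 0.1. The numbers may pair the hearts, although the labels name no shared litter or batch. The share of probes at the lowest level ranked alike in both groups, at 27.4%, 10.7% and 47.3% in CPB replicates 1, 2 and 3. It was 25.9%, 20.5% and 43.3% in the sham replicates. Mmp13, at the lowest level on every array, stood at 8.61, 8.56 and 8.68 for numbers 1, 2 and 3 in both groups. The part of such shared floors in the correlations was not tested, and none is given for arrays with different numbers. Alternatives were other scalings, a pseudocount, a common floor, filters, a replicate block, leaving out each array, and other sets of core proteins.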

Additional observations from a re-analysis of the deposited data

How the results depend on the processing

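Ugdh relative to the core mean was 0.90 to 1.13 under the 5 other scalings and floors, 0.87 to 1.33 with 1 array left out, 1.00 to 1.23 with 1 core left out (chosen after seeing the data) and 0.67 against Sdc4 and Cspg4 alone. In the values as deposited Fmod turned to -0.029 and Cspg4 to -0.079. Leaving out 1 array gave -0.070 to 0.56 for Cspg4 and -0.88 to 0.065 for Dcn. The cause was not tested. The fit called 1 probe in the values as deposited and 0 to 1 with 1 array left out, and no gene of the pathway lists under any alternative run. With the replicate number as a block, the differences are the same by construction (1.12 for Ugdh relative to the core mean), 0 probes passed, and no other call changed. The SEs did change with the block, to 0.24 for Ugdh, 0.43 for Dcn, 0.31 for Bgn and 0.27 for Fmod. Those of Sdc4, Cspg4 and Bcan became 0.23, 0.45 and 0.37. Fmod and Bcan, at 0 to 4 steps above the lowest level, have no resolved level on some arrays, and 3 arrays per group limit every difference.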
